A study of Solanum lycopersicum x Solanum pennellii and Solanum lycopersicum with 17 samples.

Results

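Carpels of the tomato introgression line IL-2_3 were compared with carpels of the cultivar M82, over all genes that the array measures. The comparison took the 4 arrays titled IL-2_3 and the 6 arrays titled as seed controls of M82, 10 of the 17 arrays in all, and every probe set that is not an Affymetrix control, 10101 of 10209. All arrays held total RNA from tomato carpels, the organ that grows into the fruit wall, collected 7 days after pollination. The plants grew in a greenhouse and were all treated equally. The organisms named for the series are Solanum lycopersicum and Solanum lycopersicum x Solanum pennellii. M82 is the parental line. IL-2_3 is M82 with 1 piece of a chromosome replaced by that of Solanum pennellii, a wild tomato, and the first digit of its name gives the chromosome. The lines IL-1_1, with 4 arrays, and IL-1_4, with 3, carry segments of another chromosome. They entered the fit for its estimate of the spread, and a further comparison set IL-2_3 against them. The lines are termed hybrids in the design text, and the sources used here do not say whether the sampled plants were homozygous for the segment. The labels do not say whether the arrays of a group came from different plants, and the p-values therefore rest on a spread between samples that may be technical.

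An introgression line isolates a small piece of a donor genome, so genes inside the segment are wild alleles while the rest of the genome is that of the recipient. Genes of the segment can differ in transcript level because their own regulatory sequence differs, and genes elsewhere can differ because a regulator lies in the segment. After pollination the carpel passes from floral organ to fruit, with cell division, cell expansion and a change of hormone signalling, above all of auxin and gibberellin. The array was designed on cultivated tomato, and a wild transcript whose sequence departs from a probe binds it less well. In these data less transcript and a poorer match of the wild allele to the probes cannot be told apart, and in whole organs neither can fewer cells of a type and less RNA per cell. The position of the probe sets on the chromosomes, and their sequences, were not analysed here.

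In both groups the young fruit markers averaged higher than the pollen markers and the style and stigma markers. The 6 young fruit markers, which include the cell size regulator fsm1, the expansin gene exp18 and the MADS-box genes TAGL1 and AGL11, had mean log2 levels of 9.84 to 10.78 over the M82 arrays and of 10.28 to 10.73 over the IL-2_3 arrays. The 8 pollen marker probe sets averaged 5.50 to 5.66 in M82 and 5.67 to 5.74 in IL-2_3. The 6 style and stigma probe sets averaged 5.19 to 5.74 and 4.95 to 5.30. In M82, 4 of the 8 pollen and 3 of the 6 style and stigma probe sets lay under 4.42, the mean 5th percentile of the arrays, which serves here as a floor. No member of these lists was called. The carpel identity gene AG1, described below, is not among the young fruit markers. The arrays had near equal medians, from 9.97 to 10.04, and no pair was identical. The young fruit averages lay close to or above these medians, and they do not by themselves fix the stage of the carpels. Correlations ran from 0.973 to 0.992 among the IL-2_3 arrays, from 0.950 to 0.996 among the M82 arrays and from 0.953 to 0.989 between the groups. On the first principal component over all 17 arrays, M82 replicate 1 scored -33.9 against -7.43 to 35.6 for the rest of M82. IL-2_3 replicate 4 scored -22.7 against 10.1 to 17.8 for the rest of its group, and the IL-1_1 arrays scored -68.1 to -14.6.

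Most of the transcriptome did not differ detectably between IL-2_3 and M82, and the calls of the main fit were more often falls than rises. Of the 10101 probe sets, 91 (0.901%) passed an adjusted p of 0.05 in limma, with 19 higher (0.188%) and 72 lower (0.713%) in IL-2_3. Lower calls made up 79.1% of the 91, while 49.2% of all tested probe sets had a negative change. The excess of falls was not kept with array weights, where 47.3% of 452 calls were falls. The calls ran from an absolute log2 change of 0.34 upwards, and 56 of the 91 exceeded 1. The called falls had a median of -1.27 on the log2 scale and the called rises a median of 1.10. The median absolute change of all probe sets was 0.0915 and the median standard error 0.141. Of the calls, 25 falls and 5 rises exceeded a log2 change of 2, and 11 falls and 3 rises exceeded 4. Among the probe sets that were not called, 65 moved by more than 1, 1 by more than 2 and 0 by more than 4. An unadjusted p under 0.05 was reached by 471 probe sets, 4.66% of those tested.

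The called falls were more often than not of probe sets with an above-median signal in M82. Their median M82 level was 10.71, against 9.99 for all tested probe sets, and 45 of the 72 lay above that overall median. The 19 called rises started from a median of 8.13, and 1 of them lay above the overall median. The M82 mean is part of the change on which the calls rest. A deep fall also needs a start well above the low end of the signal. Part of the contrast between falls and rises is therefore built into the calls. In IL-2_3 the falls reached a median level of 8.57 and the rises one of 9.70. The arrays of the groups did not overlap for 89 of the 91 calls, and for 155 (1.53%) of all probe sets. Leaving out IL-2_3 replicate 3 left 12 rises in place of 19. With weights for the arrays 238 rises and 214 falls were called, and with only the 10 arrays compared 7 rises.

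**Figure D1:**
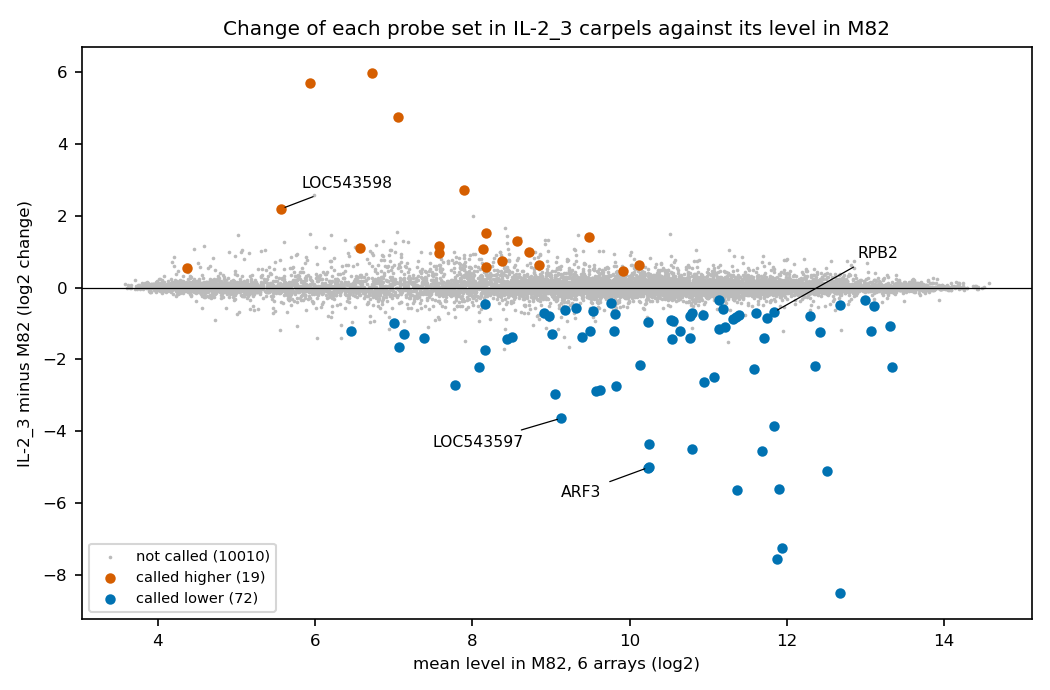
Change of each of the 10101 probe sets in IL-2_3 against M82 (log2, vertical axis) over its mean level in the 6 M82 arrays (log2, horizontal axis), with the 19 probe sets called higher in orange, the 72 called lower in blue and the others in grey. The 11 falls beyond 4 started from levels above 10, and the 3 rises above 4 started from levels under 8.

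Only 4 of the 91 called probe sets carried a gene symbol, ARF3, LOC543597, LOC543598 and RPB2. A symbol was available for 909 of the 10101 tested. Among probe sets with a symbol 0.440% were called, and among those without 0.946%. The other 87 calls are given by probe set ID. Of the 91 calls, 10 falls had an IL-2_3 mean, and 2 rises an M82 mean, at or under the level that 95% of the 63 reporter probe sets for foreign genes stay below, 5.78 in IL-2_3 and 5.73 in M82. For those described, the change is also given as a bound (at least N-fold) against that reporter level, since the mean of the dim group is not above it. Single arrays of a dim group can lie above it, as IL-2_3 replicate 4 did at 7.20 for Les.4291.1.S1_at. There the bound is smaller than one taken from these mean reporter levels. In a probe set ID the number after Les or LesAffx stands for a cluster of transcript sequences, and the next number for a member of that cluster.

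ARF3 encodes an auxin response factor, a transcription factor that passes auxin signals on to target genes. Its Arabidopsis counterpart, ETTIN, patterns the gynoecium, the structure formed by the carpels. Its probe set Les.2313.1.A1_at read 5.84, 4.99, 5.10 and 4.99 in the IL-2_3 arrays and 9.76 at the lowest, 10.21 at the median and 10.62 at the highest in M82. Every IL-2_3 array lay far below every M82 array. The ARF3 level averaged 5.23 ± 0.41 (SD, n = 4) in IL-2_3 and 10.24 ± 0.32 (SD, n = 6) in M82, and the log2 change was -5.01 ± 0.21 (SE; 95% interval -5.45 to -4.57; limma adjusted p = 1.76e-10). The IL-2_3 mean lay under the reporter level, against which this ARF3 probe set was at least 21.7-fold lower. The arrays of the other lines overlapped those of M82, with ARF3 means of 10.70 in IL-1_1 and 10.17 in IL-1_4.

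A second ARF3 probe set, Les.2313.2.A1_at, showed no such fall. It read 9.67, 9.57, 9.69 and 9.18 in IL-2_3 and 9.08, 9.68 and 10.05 at the lowest, median and highest M82 array. All 4 IL-2_3 arrays lay within the M82 range. The log2 change of this ARF3 probe set was -0.07 ± 0.19 (SE; 95% interval -0.47 to 0.33; limma adjusted p = 0.999), so its interval does not reach the change of the first. The probe sets of ARF3 therefore disagree, and the data give no single change for the gene. Both probe sets were members of the auxin list, and the pair was set side by side after their values were seen, with no test of the gap.

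LOC543597 and LOC543598, to which the annotation gives a number in place of a name, moved in opposite directions. LOC543597 read 5.10, 6.17, 5.35 and 5.34 in IL-2_3, and 7.56, 9.14 and 10.34 at the lowest, median and highest M82 array. All IL-2_3 arrays lay below all M82 arrays, although M82 itself spread widely, with an SD of 1.09. The fitted log2 change of LOC543597 was -3.64 ± 0.46 (SE; 95% interval -4.62 to -2.66; limma adjusted p = 0.000243), and with its IL-2_3 mean under the reporter level it was at least 9.60-fold lower. LOC543598 read 7.63, 8.15, 7.88 and 7.40 in IL-2_3, and 4.90, 5.54 and 6.35 at the lowest, median and highest M82 array. Here every IL-2_3 array was the higher one. The log2 change of LOC543598 was 2.19 ± 0.27 (SE; 95% interval 1.61 to 2.78; limma adjusted p = 0.000224), and with its M82 mean under the reporter level it was at least 3.65-fold higher.

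RPB2, which encodes the second-largest subunit of RNA polymerase II, fell by a small amount. Its probe set read 10.96, 11.39, 10.93 and 11.33 in IL-2_3 and 11.61, 11.88 and 12.06 at the lowest, median and highest M82 array. The groups lay close together without overlap. The log2 change of RPB2 was -0.68 ± 0.12 (SE; 95% interval -0.93 to -0.44; limma adjusted p = 0.00515), a fold of 1.61. With only the 10 arrays compared in the fit the limma adjusted p of RPB2 was 0.0528, which ends the call. With the replicate number as a block in the fit it was 0.133, which ends the call too.

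**Figure D2:**
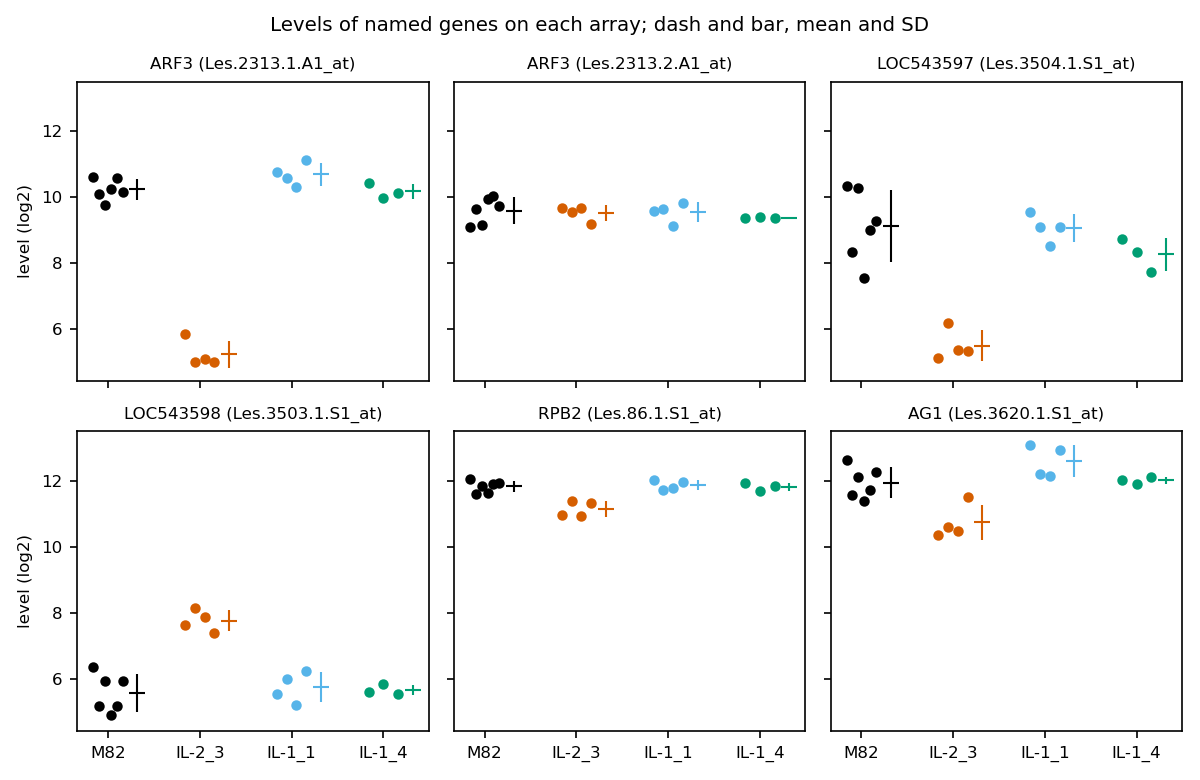
Level (log2, vertical axis) of both ARF3 probe sets, LOC543597, LOC543598, RPB2 and AG1 on every array of M82, IL-2_3, IL-1_1 and IL-1_4, with 1 point per array and a dash with a bar for the group mean and SD. The ARF3 probe set Les.2313.1.A1_at sits at 4.99 to 5.84 in IL-2_3 and at 9.76 to 10.62 in M82, while the second ARF3 probe set and AG1 overlap between these groups.

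The largest rises all came from cluster Les.218, whose 3 probe sets went from low levels in M82 to high ones in IL-2_3. Les.218.3.S1_at read 12.72, 12.84, 12.74 and 12.54 in IL-2_3 and 5.90, 6.98 and 7.39 at the lowest, median and highest M82 array. Les.218.2.S1_at read 11.73, 11.79, 11.62 and 11.44 against 5.34, 6.05 and 6.39. Les.218.1.S1_at read 11.82, 11.87, 11.82 and 11.71 against 5.74, 7.27 and 7.99. The IL-2_3 arrays were thus tightly grouped and more than 3 log2 units above the highest M82 array in all 3 probe sets. The log2 changes were 5.98 ± 0.26 for Les.218.3.S1_at (limma adjusted p = 3.44e-10), 5.71 ± 0.21 for Les.218.2.S1_at (5.8e-11) and 4.75 ± 0.36 for Les.218.1.S1_at (4.93e-07), which are folds of 63.1, 52.3 and 26.8. IL-1_1 and IL-1_4 averaged 7.77 and 7.44 for Les.218.3.S1_at, and its change against these lines was 5.11 (limma adjusted p = 1.5e-09).

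Les.5697.1.S1_at, alone in its cluster, was the next of the unnamed rises. It read 10.64, 10.68, 10.65 and 10.47 in IL-2_3 and 7.65, 7.89 and 8.18 at the lowest, median and highest M82 array, so that the change was 2.71 ± 0.12 on the log2 scale (limma adjusted p = 3.17e-10). The groups were separated by more than 2 log2 units. LesAffx.18587.1.S1_at rose by 1.42 ± 0.17 (adjusted p = 0.000118), LesAffx.67610.1.S1_at by 1.30 ± 0.26 (adjusted p = 0.0208) and LesAffx.14450.1.S1_at by 1.17 ± 0.25 (adjusted p = 0.0342). LesAffx.70335.1.S1_at rose by 1.53 ± 0.33 (adjusted p = 0.0323), from 10.72, 9.91, 9.58 and 8.59 in IL-2_3 and 7.78, 8.18 and 8.45 at the lowest, median and highest M82 array. Its IL-2_3 arrays spread widely, and its mean of 9.75 in IL-1_1 was close to the 9.70 of IL-2_3. Over 27 alternative settings LesAffx.14450.1.S1_at lost its call in 14, LesAffx.70335.1.S1_at in 12 and LesAffx.67610.1.S1_at in 6.

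The deepest fall was that of Les.2294.2.A1_a_at, which went down to the floor. It read 4.02, 4.24, 3.97 and 4.40 in IL-2_3 and 12.28, 12.59 and 13.17 at the lowest, median and highest M82 array. Its IL-2_3 mean lay under the floor. The probe set was at least 306-fold lower against the floor and at least 119-fold lower against the reporter level, with a fitted change of -8.52 ± 0.20 (SE; limma adjusted p = 1.36e-13). Les.4345.4.A1_at went the same way, with 4.25, 4.53, 4.28 and 4.20 in IL-2_3 and 10.15, 12.08 and 12.92 at the lowest, median and highest M82 array. It was at least 175-fold lower against the floor and at least 68.1-fold lower against the reporter level, with a fitted change of -7.56 ± 0.43 (SE; adjusted p = 1.27e-08). Les.4345.4.A1_x_at, a probe set that stands for the same cluster member, had a fitted change of -7.25 (adjusted p = 2.93e-09) and was at least 71.3-fold lower against the reporter level.

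Les.3248.1.A1_at had the smallest p of all. It read 7.29, 6.94, 7.21 and 7.12 in IL-2_3 and 11.62, 11.68 and 11.80 at the lowest, median and highest M82 array, so that the change was -4.55 ± 0.09 on the log2 scale (limma adjusted p = 1.23e-14). Both groups were narrow and more than 4 log2 units apart. Les.181.1.A1_at read 7.05, 7.65, 7.23 and 7.62 in IL-2_3 and fell by 5.13 (adjusted p = 2.64e-11). Les.2955.1.A1_at read 5.30, 5.14, 4.74 and 5.59, under the reporter level, and was at least 21.9-fold lower, with a fitted change of -5.04 (adjusted p = 1.08e-10). Les.2422.2.A1_at fell by 4.49 (adjusted p = 4.38e-11) and Les.2092.2.S1_at by 4.36 (adjusted p = 5.8e-11). None of these overlapped M82 in any array.

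Other deep falls varied more among the IL-2_3 arrays. Les.4291.1.S1_at read 4.92, 5.56, 5.17 and 7.20 in IL-2_3 and 10.83 at the lowest and 11.43 at the median M82 array, so that the fitted change was -5.66 ± 0.43 on the log2 scale (limma adjusted p = 4.22e-07), or at least 38.2-fold against the reporter level. Its cluster partner Les.4291.2.S1_at read 6.85, 7.85, 7.55 and 9.63 and fell by 3.87 (adjusted p = 7.54e-05). In both probe sets IL-2_3 replicate 4 lay nearest to M82. Les.4705.1.S1_at read 5.78, 6.23, 7.49 and 5.61 in IL-2_3 and fell by 5.62 (adjusted p = 4.36e-07), with replicate 3 nearest to M82. Les.1140.1.A1_at read 5.78, 5.82, 5.91 and 6.86 and fell by 2.96 (adjusted p = 4.13e-07). Over the 91 calls, the IL-2_3 array nearest to M82 was replicate 4 in 36, replicate 2 in 24, replicate 3 in 17 and replicate 1 in 14.

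**Figure D3:**
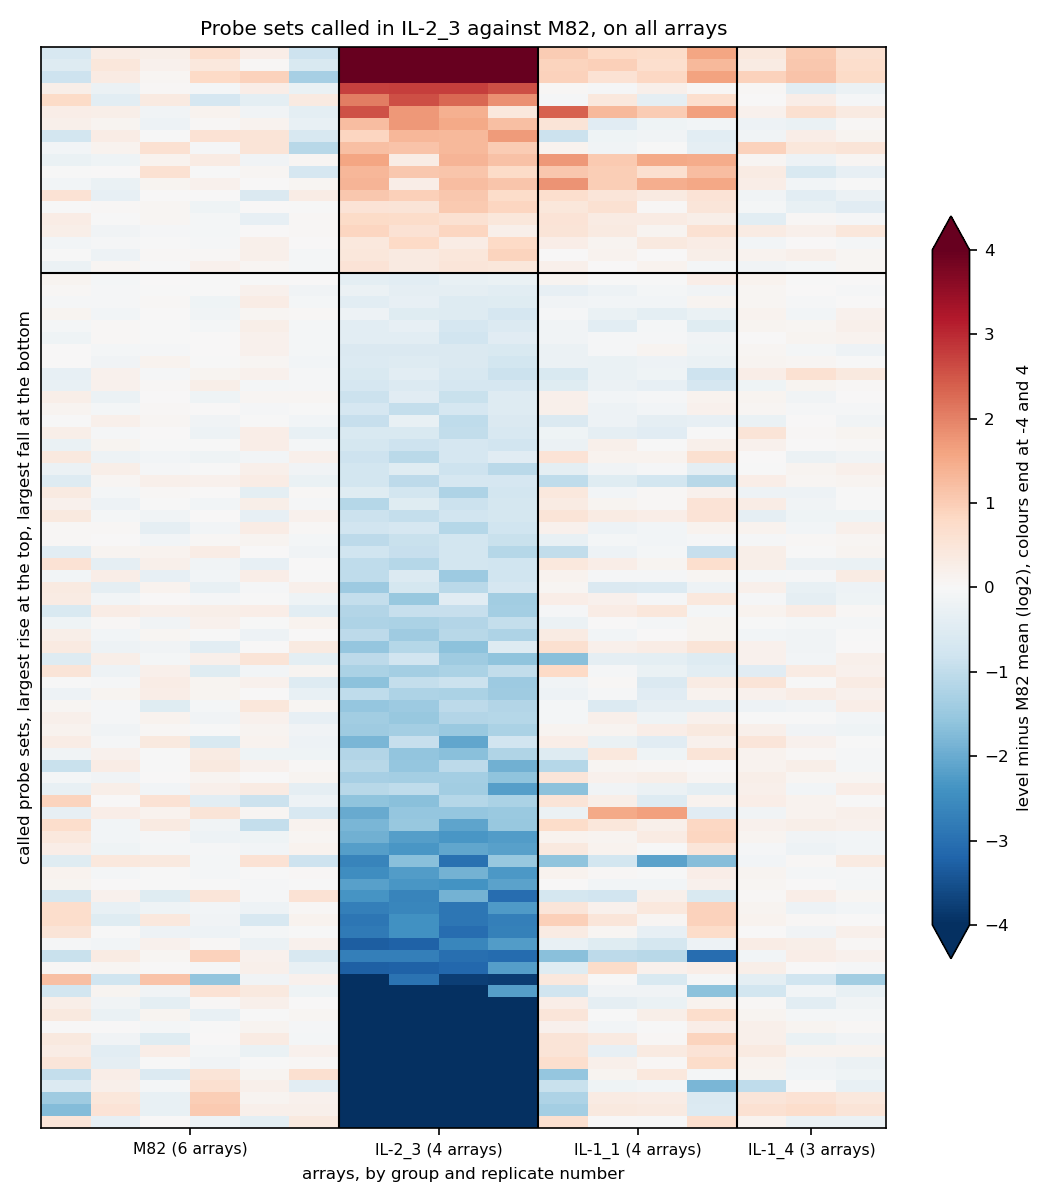
Level of each of the 91 called probe sets in all 17 arrays, as the difference from its M82 mean (log2, colour scale ending at -4 and 4), with probe sets in order of their change and arrays grouped by line. The IL-2_3 columns stand apart from the M82, IL-1_1 and IL-1_4 columns over most of the 91, and LesAffx.70335.1.S1_at is among the exceptions, with an IL-1_1 mean of 9.75 beside 9.70 in IL-2_3.

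The comparison with the other introgression lines averaged no M82 array, although it shares the 4 IL-2_3 arrays and the M82 arrays entered its estimate of the spread. Without them in the fit 187 probe sets were called in place of 210. Against the mean of IL-1_1 and IL-1_4, 210 probe sets were called in IL-2_3 (2.08%), 115 higher (1.14%) and 95 lower (0.941%). Of the 91 probe sets called against M82, 79 were also called here, 13 higher and 66 lower, and 0 had the opposite sign. The 4 IL-2_3 arrays lay beyond all 13 other arrays of the series in 70 of the 91, below them in 59 and above them in 11, while 78 of all tested probe sets (0.772%) were so placed. The ARF3 probe set Les.2313.1.A1_at stood at -5.21 against the other lines (limma adjusted p = 6.9e-11), while the second, Les.2313.2.A1_at, had an adjusted p of 0.993. LOC543597 stood at -3.17 (0.000397), LOC543598 at 2.07 (0.000145) and RPB2 at -0.71 (0.00136).

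The 12 calls that were not made against the other lines were 6 rises and 6 falls. LesAffx.70335.1.S1_at had a change of 0.55 against the other lines (limma adjusted p = 0.791) and LesAffx.14450.1.S1_at one of 0.90 (adjusted p = 0.0877). The pair Les.2842.1.S1_at and Les.2842.2.A1_at belonged here too. Les.2842.1.S1_at read 8.15, 6.87, 7.95 and 7.74 in IL-2_3, against 8.31, 7.61, 8.09 and 8.06 in IL-1_1 and 6.65, 6.38 and 6.66 in IL-1_4. IL-2_3 and IL-1_1 overlapped in this probe set, and both lay above IL-1_4.

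In many clusters 1 probe set was called and its partners were not. The 91 calls came from 77 clusters, of which 47 have a single probe set on the array and 30 have several. In 13 of the 30 clusters more than 1 probe set was called, always in the same direction, higher in 2 and lower in 11, and in 12 of the 13 every probe set of the cluster was called. In the other 17 clusters exactly 1 probe set was called, 4 of the 6 clusters with rises and 13 of the 24 with falls. Their 21 partners changed by -0.46 to 0.84. The 95% interval of 16 of the partners held 0, and the interval of 2 held the change of the called probe set. Some partners were dim in both groups. The means of LesAffx.70134.1.A1_at, LesAffx.10235.1.A1_at and LesAffx.58854.2.A1_at were 4.39, 4.97 and 5.22 in M82 and 4.28, 4.81 and 5.09 in IL-2_3. These lie under the reporter level, so such partners could not show a fall. The pairs of call and partner were set side by side after their values were seen, and the gaps were not tested.

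Some of the deepest falls stood beside partners with small changes. Of the 30 calls beyond a log2 change of 2, 12 had another call in their cluster, 12 were alone in it and 6 had only partners that were not called. All 6 were falls, from -8.52 to -2.27, and their 7 partners ran from -0.46 to 0.84. Beside Les.2294.2.A1_a_at at 3.97 to 4.40 in IL-2_3, its partner Les.2294.2.A1_at read 12.22, 12.11, 12.34 and 12.60, a change of -0.46 (95% interval -0.83 to -0.09; limma adjusted p = 0.705). Partner and call bear the same cluster and member number and differ in the letter a, which marks the choice of probes. Beside Les.3248.1.A1_at, the partners Les.3248.2.S1_at and Les.3248.3.S1_at changed by -0.16 and -0.14. Beside Les.2955.1.A1_at at -5.04, Les.2955.2.S1_at read 9.62, 9.62, 9.82 and 9.63 and changed by 0.84 (95% interval 0.33 to 1.35; adjusted p = 0.227).

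The probe sets of wholly called clusters fell by like or by unlike amounts, and the gaps were not tested. Les.2823.1.S1_at and Les.2823.2.S1_at changed by -0.85 and -0.96, and Les.2659.1.S1_at and Les.2659.2.A1_at by -1.42 and -1.22. Les.3257.1.S1_at and Les.3257.2.S1_at changed by -2.62 and -2.17, and Les.2821.1.S1_at and Les.2821.2.S1_at by -2.73 (at least 3.99-fold against the reporter level) and -1.74. Les.2401.2.A1_at changed by -2.20 and Les.2401.1.S1_at by -0.82, and Les.2092.2.S1_at by -4.36 and Les.2092.1.S1_at by -1.08. All 12 were called. In cluster Les.4345 the A1_at and A1_x_at probe sets of member 4 fell by more than 7, while the others of the cluster changed by -0.17 to 0.57 and were not called. Probe sets whose ID bears the letter A, for their orientation, gave 27 calls of 2374 tested (1.14%), 25 of them lower, and those with the letter S gave 64 of 7664 (0.835%), 47 of them lower.

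**Figure D4:**
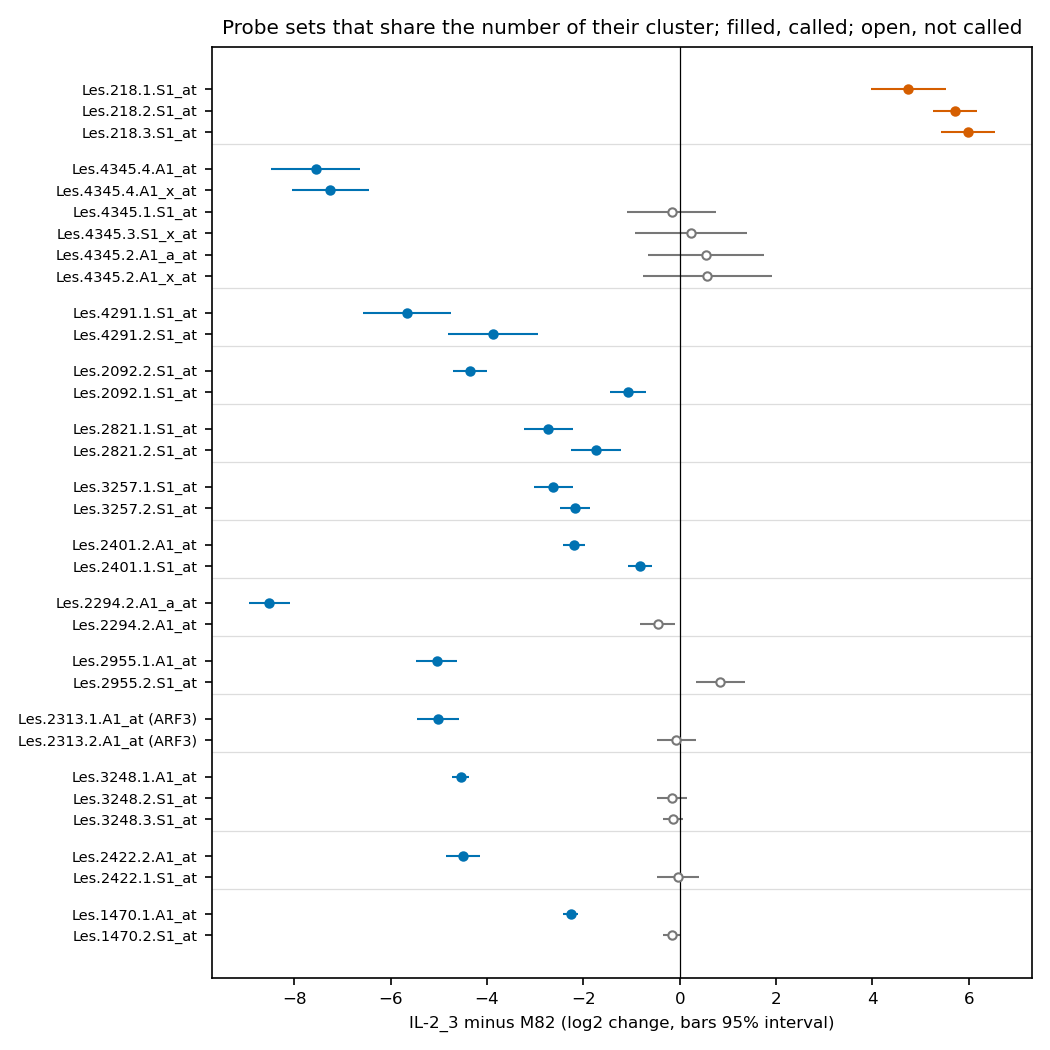
Change in IL-2_3 against M82 (log2, horizontal axis, with 95% intervals) of every probe set in the clusters that hold a call beyond a log2 change of 2 and have more than 1 probe set, with called probe sets filled and the others open. In the clusters of ARF3 (Les.2313), Les.2294, Les.3248, Les.2955 and Les.2422 the called probe set lies below -4 while the partners lie between -0.46 and 0.84.

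The gene lists for carpel growth and hormone response gave 1 call, a share near that of all probe sets with a symbol. The 27 lists hold 346 probe sets of 315 genes, and 1 of them was called, the ARF3 probe set. That is 0.289%, beside 0.440% of all probe sets with a symbol, from which the lists were drawn, and 0.901% of all tested. The other 13 auxin probe sets were not called, and the list, which holds 7 genes, had a median change of 0.01. An unadjusted limma p under 0.05 was reached by 19 of the 346 list members, beside 4.66% of all tested probe sets. List medians ran from -0.24 for style and stigma markers to 0.58 for abscisic acid and water stress, beside a median of 0.003 over all tested probe sets.

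The MADS-box list, transcription factors of floral organ identity and fruit development, had 0 calls and a median of 0.18, with 5 of 7 changes positive. An unadjusted limma p under 0.05 was reached by 4 of the 7 members, beside 4.66% of all tested probe sets. The lists were chosen with earlier results of these data known, so that count is no test of the family. TDR4, a counterpart of the Arabidopsis fruit patterning gene FRUITFULL, read 10.06, 9.38, 10.56 and 9.98 in IL-2_3 and 8.04, 8.51 and 9.67 at the lowest, median and highest M82 array. The groups overlapped in M82 replicate 1. The TDR4 change was 1.38 ± 0.37 (SE; 95% interval 0.59 to 2.18; limma adjusted p = 0.181), and its means in IL-1_1 and IL-1_4 were 9.92 and 9.86 beside 9.995 in IL-2_3.

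AG1, the tomato AGAMOUS gene of stamen and carpel identity, came closest to a call among the named genes that missed it. The patterns of the MADS-box and young fruit lists did not catch AG1. The medians and marker levels of these lists therefore do not cover it. It read 10.37, 10.62, 10.48 and 11.52 in IL-2_3 and 11.40, 11.92 and 12.63 at the lowest, median and highest M82 array. Replicates 1 to 3 of IL-2_3 lay below all M82 arrays and replicate 4 within their range. The AG1 change was -1.21 ± 0.27 (SE; 95% interval -1.79 to -0.63; limma adjusted p = 0.0533), and against the other lines it was -1.57 (adjusted p = 0.00252), which passes the threshold.

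The next named genes below the threshold had changes of either sign. CAT2, a catalase gene, had a change of 0.30 ± 0.07 (limma adjusted p = 0.0674), with 12.07, 12.20, 12.16 and 11.93 in IL-2_3, all above the M82 maximum of 11.88. The CAT2 levels of IL-1_1, from 11.95 to 12.18 with a mean of 12.03, also lay above that maximum. PME2.1, a fruit pectin methylesterase that modifies cell wall pectin, had one of -0.95 ± 0.23 (adjusted p = 0.0849), with 8.45, 9.01, 8.46 and 8.56 in IL-2_3, all below the M82 minimum of 9.05. IL-1_1 lay as low as IL-2_3 for PME2.1, with a mean of 8.55 beside 8.62. SNF1, a protein kinase of the energy-sensing family, had a change of -0.52 (adjusted p = 0.158) and SIP one of -0.76 (adjusted p = 0.127). LOC543862 and LOC543817 had changes of 0.66 (adjusted p = 0.234) and 0.61 (adjusted p = 0.263).

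The remaining hormone and stress lists held no call either, and their members ranged widely. Of the 44 ethylene probe sets 1 had an unadjusted p under 0.05, ER24, an ethylene-responsive gene, with a change of 0.63 (95% interval 0.18 to 1.07; limma adjusted p = 0.498). Of the 7 abscisic acid and water stress genes 6 had positive changes. TAS14, a dehydrin of that list, read 8.92, 5.93, 7.59 and 6.40 in IL-2_3 and 5.57, 6.19 and 6.60 at the lowest, median and highest M82 array. Replicates 1 and 3 lay above M82 and the others within it, and the change of TAS14 was 1.09 (95% interval -0.07 to 2.25; adjusted p = 0.999). LAPA1, a wound-induced leucine aminopeptidase, had a change of 0.77 (95% interval -0.14 to 1.69; adjusted p = 0.999). The 4 gibberellin probe sets, with CPS of the first step of gibberellin synthesis at 0.16, had a median of -0.04. The CPS means of 5.05 in M82 and 5.21 in IL-2_3 lay under the reporter level.

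Growth and metabolism lists stayed near 0 in their medians. Of the 13 cell cycle genes 10 had negative changes, with a median of -0.04 and -0.16 (95% interval -0.63 to 0.30) for CDKB1, a kinase of the passage into mitosis. Of the 49 cell wall probe sets 7 had an unadjusted limma p under 0.05, beside 4.66% of all tested, and their changes ran from -1.40 to 0.64 over the list. The 11 ribosomal protein and translation probe sets ranged from -0.07 to 0.17. The 25 sugar and starch probe sets had a median of -0.01, with HT3, a hexose transporter, at -0.32 (limma adjusted p = 0.499). The 7 photosynthesis probe sets had a median of -0.01, with PsbQ, a subunit of the oxygen-evolving complex, at -0.33 (adjusted p = 0.999). Their mean level ran from 11.05 to 12.97 over the M82 arrays and from 11.34 to 12.73 over the IL-2_3 arrays. The pathogenesis-related and defence list had 17 of 24 positive changes and a median of 0.12. GluB, a glucanase of that list, lay under the floor in IL-2_3, and its M82 mean of 5.01 lay under the reporter level. The jasmonate, protease, heat shock, antioxidant, phenylpropanoid, carotenoid, chromatin, meristem, light, trafficking, kinase, transport and seed lists had medians from -0.09 to 0.12 and 0 calls.

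**Figure D5:**
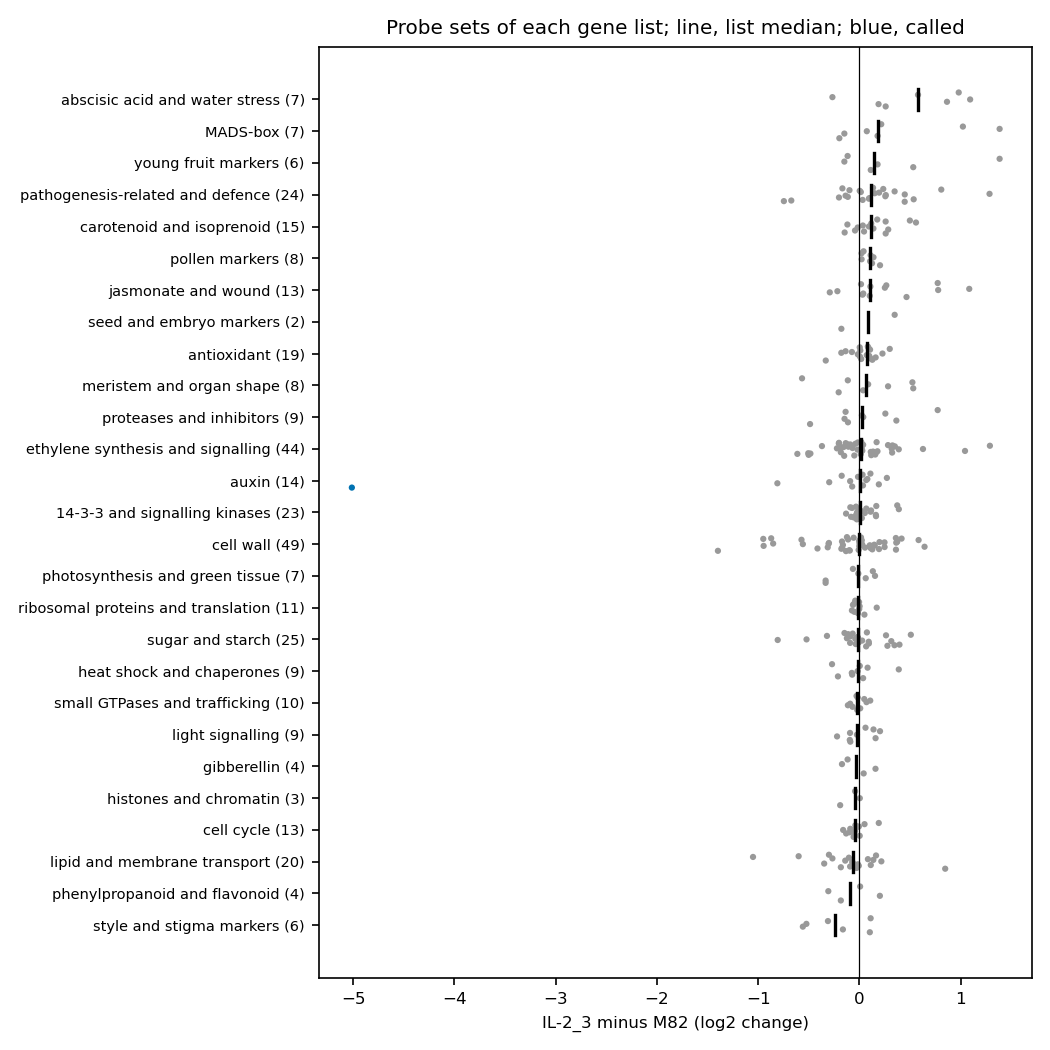
Change in IL-2_3 against M82 (log2) of each probe set of the gene lists, 1 line per list, with a tick at the list median and the called ARF3 probe set marked. The medians lie between -0.24 and 0.58, and ARF3 at -5.01 is the one member that was called.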

How the data were processed

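Tomato Affymetrix arrays, 1 sample each, were labelled with biotin by a single-cycle protocol, per the labels. The authors deposited log2 values per probe set, made with affy per the submitters' processing notes. The sources used here give no version, background correction or summarization method, and base 2 was inferred from the range. The values were used as they stood. Control probe sets were left out; 63 reporter probe sets for foreign genes were kept, and 0 were called (largest absolute change 0.153). Their 95th percentile per array served as a background level for bounds.

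One limma fit (limma 3.58.1, R 4.3.3) over all 17 arrays with 4 group means gave a moderated two-sided test for each contrast, adjusted by the Benjamini-Hochberg method over 10101 probe sets, with a call at 0.05. Levels are mean ± SD, and changes carry the standard error of the fit. The number of arrays limits the precision. In simulated data with 50 changed probe sets per size, 42% were recovered at a log2 change of 0.5 and 76% at 1. At 2 and 4 these shares were 94% and 100%, and false calls made up 5.45%. These rates hold for the simulated noise only. Whether they carry over to the real arrays was not tested. There the count of calls was 60 with only the arrays compared and 452 with array weights.

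Symbols come from the platform annotation of 2007. Named were all called probe sets with a symbol, the 8 largest rises and 12 largest falls without one whose arrays do not overlap, per list the called members or the one with the smallest p, and the 8 symbols of smallest p not called. The comparison and the lists were chosen with earlier results of these data known, and list patterns were trimmed of chance letter matches once the symbols were seen. Alternatives changed the arrays in the fit, the normalization, filters and weights, and left out each array.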

Additional observations from a re-analysis of the deposited data

Results flagged for a closer look

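Each named probe set was examined for an array far from the rest of its group, which gave 4 of 108 groups tested. Chance alone marks about 1 group in 20. In IL-2_3, replicate 1 stood apart for ARF3 (Les.2313.1.A1_at), at 5.84 with the nearest array at 5.10, still far below M82. Replicate 4 of IL-2_3 stood apart for Les.1140.1.A1_at, at 6.86 with the nearest at 5.91. In M82, replicate 6 stood apart for TAPG1, a polygalacturonase of abscission, at 5.63 with the nearest at 4.63. All TAPG1 values of M82 and IL-2_3 lay under the reporter level, 5.73 in M82 and 5.78 in IL-2_3. M82 replicate 4 stood apart for LOC543817, at 11.49 with the nearest at 11.16.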

How the results depend on the processing

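The number of calls depended on which arrays entered the fit and on how they were weighted or adjusted. The 91 calls became 60 with only the arrays compared, 452 with array weights and 147 with the main within-group axis as a covariate. The 19 rises became 7, 238 and 49 under the same settings, and the falls became 214 with array weights, so that 88.3%, 47.3% and 66.7% of calls were falls. The 210 calls against the other lines became 880 with array weights and 372 with the covariate. The cause was not tested. With 1 array left out, calls ran from 68 to 100, rises from 12 (without IL-2_3 replicate 3) to 26, falls from 56 to 74, and calls against the other lines from 162 to 228. Quantile normalization gave 89 calls, median centring 94, the filter on the dimmest 25% 80, the intensity trend 91, and leaving out reporters, an alternative chosen after seeing the data, 91. Without both M82 replicate 1 and IL-2_3 replicate 4 the count was 91, of which 71 were shared. Of the 91 calls 78 were measured in all 27 settings and 13 in all but the filter on the dimmest 25%. In every setting that measured them 52 were kept, 6 rises and 46 falls, 8 of them among the 13, and these include all 30 beyond a log2 change of 2. The reporter level as background, also chosen after seeing the data, gave lower bounds than the floor. Of the 24 named calls 20 were kept, the exceptions being RPB2, LesAffx.70335.1.S1_at, LesAffx.67610.1.S1_at and LesAffx.14450.1.S1_at. Of the named probe sets not called, 13 were called in some setting, and 0 named changes changed sign.

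Arrays of the same number did not visibly deviate together (r from -0.71 to 0.33), and 0 of 4 IL-2_3 arrays correlated best with the M82 array of their number. Pairing by number was thus not seen, but 4 correlations cannot exclude it. With the replicate block 65 probe sets were called, all 65 among the 91.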
